A study of Drosophila melanogaster with 4 samples.

Results

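The left arm of chromosome 2 (2L) of Drosophila melanogaster carried 945 of the 5538 regions, 17.1%, that the authors' peak list gives as sites of Fruitless (Fru) chromatin immunoprecipitation in the embryo. A region was taken as a member when its sequence name was 2L, so membership rests on position alone and not on peak height or width. The single peak on the heterochromatic scaffold 2LHet, 289 bp wide with a score of 8.82, was kept apart. All positions are in FlyBase Release 5, whose numbering of 2L runs from the telomere at base 1 towards the centromere. No gene positions or sequence of that release were used here, so peaks are named by their coordinates and not assigned to genes, exons or introns.

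Fru is a transcription factor with a BTB domain, through which such proteins pair with each other, and zinc fingers, through which they contact DNA. Its male-specific products are known for building the circuit for courtship, and its common products, made in both sexes, act earlier and more widely in development, including in the embryonic nervous system. In chromatin immunoprecipitation followed by sequencing, DNA bound by the protein is pulled down with an antibody, and a peak is a stretch where the pulled-down DNA is enriched over what the peak caller expects.

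The series holds 2 ChIP libraries, made with a rabbit polyclonal antibody to Fru, and 2 libraries of input DNA, which is chromatin DNA that was not immunoprecipitated. All 4 share 1 stock, labelled Y cn bw sp. Its genotype, the same in ChIP and input, carries y[1] and oc[R3.2] on the X, cn[1], bw[1] and sp[1] with Gr22b[1], Gr22d[1] and also CG33964[R4.2] on chromosome 2, and LysC[1], MstProx[1], GstD5[1] and Rh6[1] together with lab[R4.2] on chromosome 3. The stage label reads Embryo 0-8 while the collection protocol speaks of 8-16 hours, and sex is unknown, so both sexes may be present and cells of every embryonic tissue are pooled. Embryos were fixed for 15 min in 1.8% formaldehyde, per the labels. The deposited list is 1 list for the whole series with no value per library, so no replicate error exists for any value given here. Read depth is unknown. The 95% intervals printed with counts and shares are exact Poisson or binomial intervals, those with medians are order-statistic intervals, and all of them cover counting error only and treat neighbouring peaks as independent. No test was made over peaks or windows, which are not replicates.

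Fru peaks ran along nearly the whole numbered length of 2L. The first peak lay from 14188 to 14403 (216 bp, score 7.7) and the last from 22665406 to 22665967 (562 bp, score 18.05), a span of 22.7 Mb. Together the 945 peaks covered 506 kb, or 2.23% of that span. The density was 41.7 peaks per Mb (39.1 to 44.5). Peaks were denser on the telomeric side: the middle one of the 945 centres lay at 9240989, which is 40.7% of the way along, and 561 peaks, 59.4% (56.2% to 62.5%), lay in the telomeric 50% of the span.

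In 1 Mb windows laid from base 1, the number of peaks ran from 10 to 80, with a mean of 42.7 ± 15.3 (SD, n = 22 windows, leaving out the last one, which the peaks fill only in part). The fullest window, from 6000001 to 7000000, held 80 peaks (63.4 to 99.6) and covered 46.7 kb with them. Next came the window from 2000001 to 3000000 with 72 peaks (56.3 to 90.7), the one from 21000001 to 22000000 with 57 (43.2 to 73.9) and the one from 5000001 to 6000000 with 54 (40.6 to 70.5). Of the 57 in the window from 21000001, 41 lay in a stretch of 121.9 kb described below. From 11000001 to 17000000 the 6 windows were even, with 30 to 36 peaks each. The emptiest full window followed directly, from 17000001 to 18000000, where 10 peaks (4.80 to 18.4) covered 4.33 kb. The window was named because it had the fewest peaks, and its interval treats neighbouring peaks as independent. In 50 kb windows, the variance of the peak number was 3.83 times its mean. Intervals for counting error alone are thus too narrow to set the window apart. Beyond 22000001 only 6 peaks were called.

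**Figure D1:**
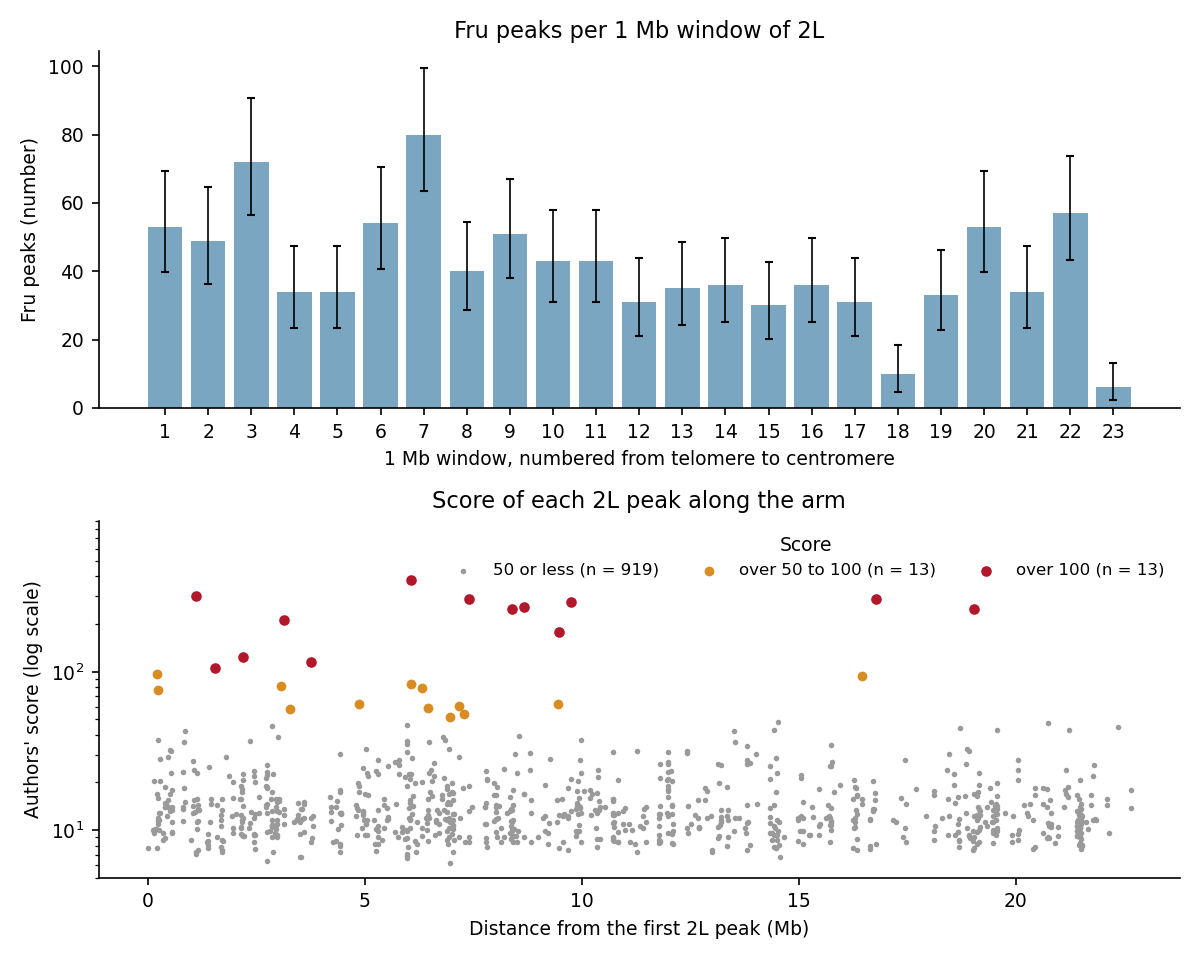
Upper panel: number of Fru peaks (bars, y axis from 0) in each of the 23 windows of 1 Mb on 2L, from telomere to centromere, with exact 95% Poisson intervals for counting error. Lower panel: authors' score (log scale) of each of the 945 peaks against its distance from the first 2L peak in Mb; scores over 100 (13 peaks) are red, scores over 50 to 100 (13 peaks) orange and the rest grey. Window 7 is the fullest with 80 peaks and window 18 holds 10. In the telomeric 50% of the span lie 23 of the 26 red and orange points, beside 59.4% of all points.

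The typical Fru peak on 2L was short. Widths had a median of 384 bp (367 to 403), with quartiles of 265 and 620 bp. The narrowest width, 201 bp, was also the narrowest in the whole list, where 169 peaks have it, and 26 of those are on 2L. By position, the first 3 of the 26 lay from 156950 to 157150, from 1007446 to 1007646 and from 1409236 to 1409436, with scores of 9.94, 8.72 and 9.51. No peak of the list is narrower, and the caller setting behind this is not given. At the other end, 95 peaks, 10.1% (8.21% to 12.1%), were 1000 bp or wider. Of these 95, 69 lay in the telomeric 50% of the span (72.6%, 62.5% to 81.3%), beside 59.4% of all 2L peaks.

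The widest peak on 2L measured 4532 bp, from 246206 to 250737, and its score was 76.45. Only 26.7 kb away, centre to centre, lay another of the 5 widest, measuring 3138 bp from 220249 to 223386, with a score of 97.39. The second widest ran from 19052158 to 19056164 (4007 bp, score 247.48), the next from 8674694 to 8678121 (3428 bp, score 255.80) and one more from 6086833 to 6090082 (3250 bp, score 378.68). The first Mb of the arm thus held both of the broad peaks in this group with scores under 100. It also had the highest median width of any 1 Mb window, 478 bp for 53 peaks, with 11 peaks of 1000 bp or more. The window from 6000001 came close, at 468.5 bp for 80 peaks, and no interval was taken for these medians.

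Width and the authors' score went together. The score has no stated scale and serves only to rank peaks within the list. Its median on 2L was 12.42 (12.04 to 12.84), with quartiles of 9.97 and 16.76. Over the 945 peaks Spearman's rho between score and width was 0.71, and the log10 values had a Pearson's r of 0.72. This describes the peaks, which are not independent, and a caller may build both values from the same read pile. Among the 330 peaks of up to 300 bp the median score was 10.1 and none exceeded 21.02. From 301 to 600 bp the median was 12.5 (n = 364), from 601 to under 1000 bp it was 18.1 (n = 156), from 1000 bp to under 2000 bp it was 25.9 (n = 77) and from 2000 bp up it was 89.6 (n = 18). Of those 18 broadest peaks, 8 scored over 100 and the lowest scored 22.26.

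**Figure D2:**
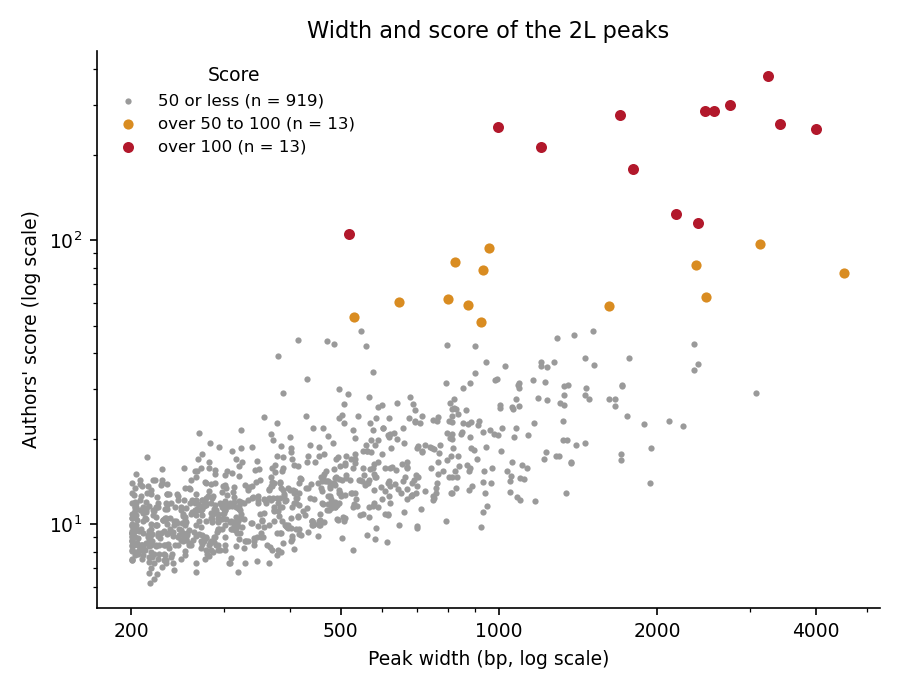
Authors' score (y axis, log scale) against width in bp (x axis, log scale) for the 945 Fru peaks on 2L, coloured by score: over 100 (13 peaks, red), over 50 to 100 (13 peaks, orange) and 50 or less (919 peaks, grey). Points stop at 201 bp on the left, and 8 of the 13 red points have widths of 2000 bp or more.

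Scores over 100 were reached by 13 peaks, 1.38% of those on 2L (0.734% to 2.34%). The highest, 378.68, belonged to the 3250 bp peak from 6086833 to 6090082. It was accompanied by a second high peak, from 6078733 to 6079557, with a score of 83.87 and a width of 825 bp, and by 4 more peaks with centres within 10 kb. The second highest, 300.58 for 2754 bp from 1117834 to 1120587, had a single low neighbour within that distance (score 7.03). Rank 3, with 286.35, ran from 7419036 to 7421503 (2468 bp) and rank 4, with 285.95, from 16786205 to 16788771 (2567 bp). These were followed by 277.17 from 9757474 to 9759174 (1701 bp), 255.80 for the 3428 bp peak named above, 250.30 from 8416243 to 8417238 (996 bp) and 247.48 for the 4007 bp peak. Ranks 9 and 10 scored 213.30 (3152310 to 3153513, 1204 bp) and 178.00 (9493502 to 9495300, 1799 bp).

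The remaining 3 peaks over 100 scored 105.18 to 124.03. One of them, from 1556723 to 1557241, was only 519 bp wide and stood 55687 bp from its nearest neighbour. Just under 100 lay the peak of 97.39 near the telomere and one of 94.34 from 16485567 to 16486522. The 13 had a median width of 2392 bp, whereas the median of the other 932 was 380 bp.

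High peaks had about as many other peaks within 10 kb as the rest, and a lower median number within 50 kb. The 13 had a median of 3 other peaks with centres within 10 kb (range 0 to 5), and the other 932 a median of 2 (quartiles 1 and 4). Within 50 kb the medians were 5 (range 0 to 17) and 8 (quartiles 4 and 12). The median free stretch to the nearest neighbour was 633 bp for the 13 (range 44 to 55687) and 1009 bp for the other 932 (quartiles 265 and 4178). The 37 peaks within 10 kb of the 13 had a median score of 13.26, and 12 of the 37 exceeded the upper quartile of 2L. The highest of them were the 83.87 beside the top peak and a 28.64. Of the 13, 8 were members of a chain, meaning a series of peaks with fewer than 1000 free bases between neighbours, and 5 stood alone by that measure. Among all 945 peaks of 2L, 470 (49.7%) were members of a chain.

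The high peaks were unevenly spread along the arm. Of the 26 peaks scoring over 50, 23 lay in the telomeric 50% of the span (88.5%, 69.8% to 97.6%), as did 11 of the 13 over 100 (84.6%, 54.6% to 98.1%), beside 59.4% of all 2L peaks. Then none followed for 6.73 Mb, from the peak at 9757474 to the one at 16485567. That interval of 6.73 Mb, out of a span of 22.7 Mb, held 249 peaks (26.3% of those on 2L), of which 23 were 1000 bp or wider (9.24%). Their median score of 12.22 was close to the 12.5 of the other 696. The interval was named as the longest between neighbouring peaks over 50, so no score in it could exceed 50. The highest in it, 47.94, lay just under that limit, so the length of the interval depends on the limit. The most centromeric peak over 50 was the 4007 bp peak at 19052158, and the nearest other one, at 16786205 on its telomeric side, was 2267 kb away. On the other large arms the telomeric 50% of the span held 14 of 24 peaks over 50 on X, 7 of 23 on 2R, 15 of 24 on 3L and 15 of 24 on 3R. The share of peaks over 50 was the highest of the 5 on 2L, and the difference was not tested. For all peaks, the telomeric 50% held 51.0% on X, 44.4% on 2R, 53.9% on 3L and 47.1% on 3R.

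Peaks of 1000 bp or more also made up a larger share of the telomeric side. With the span cut into 5 equal parts from telomere to centromere, the numbers of peaks were 228, 239, 176, 120 and 182. The share that was 1000 bp or wider was 13.6% (9.43% to 18.7%), 10.9% (7.23% to 15.5%), 11.4% (7.08% to 17.0%), 5.83% (2.38% to 11.6%) and 6.04% (3.06% to 10.6%), with overlapping intervals. Median widths were 379, 421, 406, 356 and 352.5 bp, and median scores 12.9, 12.9, 12.5, 11.9 and 11.9. The score intervals overlapped, from 11.89 to 13.59 in the most telomeric part and from 11.34 to 12.57 in the most centromeric one.

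Spacing on 2L covered a wide range. Neighbouring peak centres were a median of 4092 bp apart (3567 to 4982), with quartiles of 1397 and 19900 bp. Counting free bases from edge to edge, the median was 3627 bp, the shortest stretch 44 bp and the longest 409448 bp. Of the 944 free stretches, 58 were under 100 bp, 220 from 100 to under 1000 bp, 346 from 1 to under 10 kb, 255 from 10 to under 100 kb and 65 were 100 kb or longer. The 65 longest, 6.89% of the stretches, made up 50.8% of the span. The 278 stretches under 1000 bp took up 0.476% of it, and 470 peaks, 49.7% (46.5% to 53.0%), had at least 1 neighbour that close.

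The longest stretch without a peak extended from 16789735 to 17199182 (409.4 kb). It began at the end of the chain that holds the peak of rank 4 by score, and it reached into the sparse window that starts at 17000001. The next were 394.9 kb from 3826473 to 4221358, 349.5 kb from 4460769 to 4810258, 337.4 kb from 14669178 to 15006590 and 320.2 kb from 12109973 to 12430191. The stretches of 394.9 and 349.5 kb were separated by 239.4 kb with 20 peaks. The 10 peaks that bordered these 5 stretches scored from 8.14 to 16.23, of which 8 lay within the quartiles of all 2L peaks and 2 below them.

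**Figure D3:**
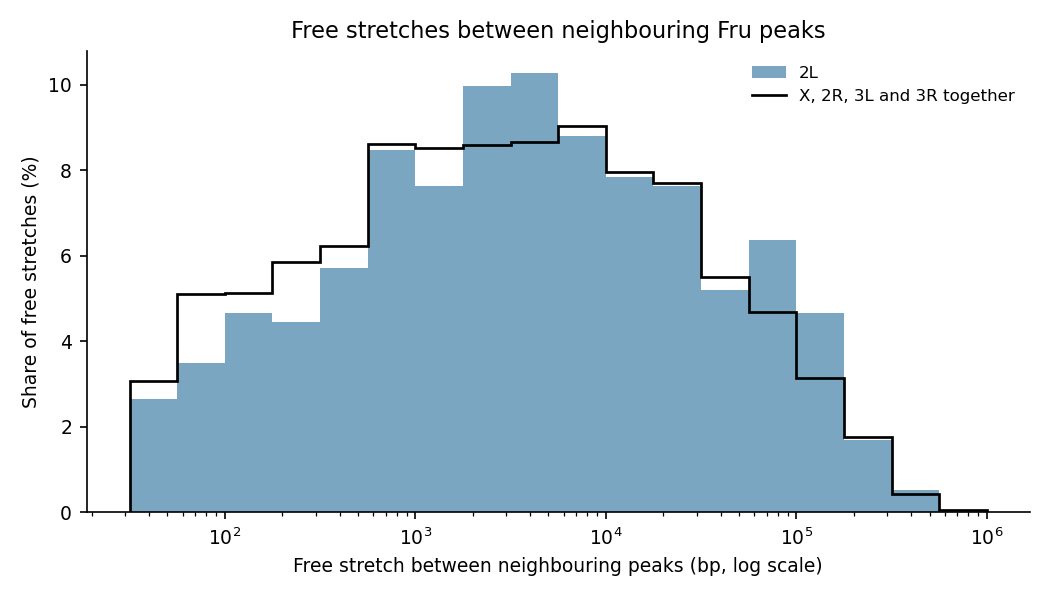
Share of free stretches between neighbouring Fru peaks (y axis, %) by their length in bp (x axis, log scale), for the 944 stretches of 2L (filled) and for X, 2R, 3L and 3R together (line). On 2L the bins below 1000 bp hold smaller shares than on the other arms together, and 65 of its stretches are 100 kb or longer.

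The most isolated had 222744 free bases to its nearest neighbour and lay from 17728992 to 17729302 (311 bp, score 18.14), in the sparse window after 17 Mb. The second, from 22364810 to 22365224, was 415 bp wide and scored 44.62, with 197089 free bases on its telomeric side and 299786 on the other. Another, from 17952047 to 17952379, was the next peak after the most isolated one, and a further one lay from 19768782 to 19769431. A single one of the 5, from 8998060 to 8998336, was on the telomeric side. In all, 67 peaks (7.09%, 5.54% to 8.92%) were at least 20 kb from any neighbour, and 34 of the 67 lay in the telomeric 50% of the span (50.7%, 38.2% to 63.2%). Their median width was 352 bp (308 to 413) and their median score 12.22 (11.55 to 12.91), whereas the 470 peaks with a neighbour closer than 1000 bp had a median width of 404 bp (383 to 444) and a median score of 12.79 (12.20 to 13.39). The intervals overlap for both measures. Peaks of 1000 bp or more numbered 3 of the 67 (4.48%) and 57 of the 470 (12.1%).

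Chains gathered 470 of the peaks into 192 groups, while 475 peaks stood alone, so that the arm had 667 separate peaks or chains. Most chains were pairs (133) or triplets (44), and 15 held at least 4 peaks. The longest, with 9 peaks in 7964 bp, lay from 10731784 to 10739747. Peaks covered 72.4% of it, and its scores ran from 8.72 to 31.04. Chains of 6 lay from 5321446 to 5326616 and from 19575327 to 19582456, with highest scores of 27.69 and 43.15. By position, the first 2 of the 3 chains of 5 lay 32862 free bases apart, from 2158931 to 2163394 (highest score 15.73) and from 2196257 to 2203477 (highest score 124.03). The median score was 12.22 for peaks alone, 12.91 in pairs, 12.4 in triplets and 11.8 in chains of 4. It was 14.68 for the 15 peaks in chains of 5, whose median width was 664 bp, 13.5 for the 12 peaks in chains of 6 and 12.91 in the chain of 9.

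The share of long chains was the lowest of the 5 large arms on 2L. Of its 667 separate peaks or chains, 15 had 4 peaks or more (2.25%, 1.26% to 3.68%), compared with 19 of 452 on X (4.20%, 2.55% to 6.49%), 41 of 797 on 2R (5.14%, 3.72% to 6.91%), 33 of 707 on 3L (4.67%, 3.23% to 6.49%) and 45 of 938 on 3R (4.80%, 3.52% to 6.37%). Those 15 chains contained 72 peaks, 7.62% of the peaks on 2L, while on the other 4 arms the share was 13.9% to 15.3%. The interval of 2L overlapped those of X, 3L and 3R and stayed below that of 2R. On X the density was 33.9 peaks per Mb and long chains held 13.9% of the peaks. A link between density and the share in long chains was not tested. With the chain limit set at 500 or at 2000 bp 2L was again the lowest of the 5, at 0.653% against 1.12% to 2.27%, and at 6.32% against 8.42% to 10.5%. Its intervals there, 0.212% to 1.52% and 4.46% to 8.64%, overlapped those of all other arms, also that of 2R. Per Mb of span, 2L had the fewest such chains at limits of 500 and 1000 bp. At 2000 bp it had 1.589 per Mb and X had 1.585. The difference in share was not tested, and the measure was chosen after values by arm had been seen.

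Density on 2L lay between those of other large arms. It was next to that of 3L, at 42.8 per Mb (40.2 to 45.5). Its median width of 384 bp was within 43.5 bp of those of all 4 other arms, which ran from 340.5 bp on X to 397.5 bp on 3R. It was the second widest with all peaks, the widest with the top 25% by score and the narrowest of the 5 with peaks merged. The median distance between centres was the longest of the 5 arms, but its interval overlapped those of the others, whose medians ran from 3266 bp on 3R to 3801 bp on X. It ranked 3 of 5 with the top 50% or the top 25% of peaks by score over all arms, and with peaks closer than 1000 bp merged. The share of 50 kb windows without a peak, counted from the first peak of each arm, was 42.1% on 2L (37.5% to 46.8%), 41.7% on 3L, 39.9% on 3R, 31.9% on 2R and 54.4% on X.

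**Figure D4:**
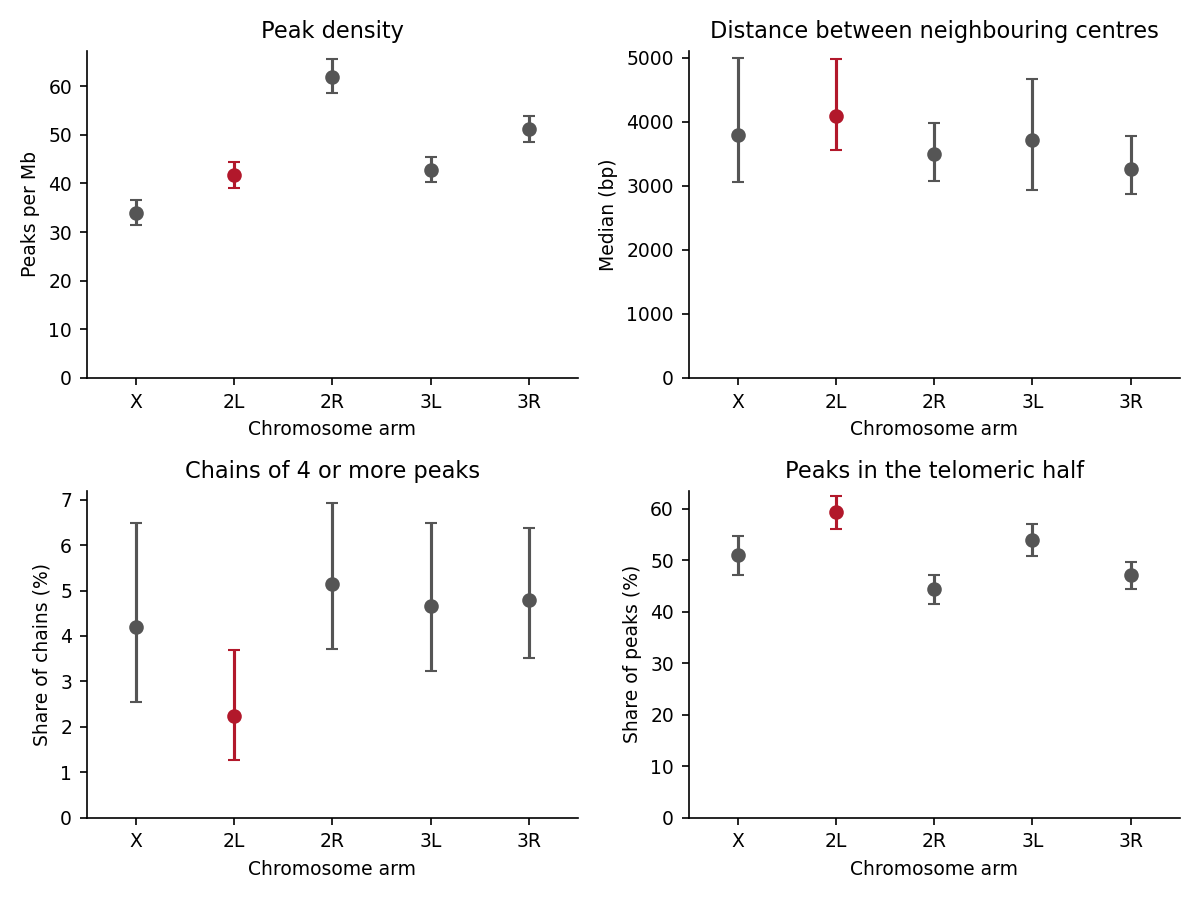
Peaks per Mb of span, median distance between neighbouring peak centres in bp, share of separate peaks or chains that hold 4 or more peaks in %, and share of peaks in the telomeric 50% of the span in %, for X, 2L (red), 2R, 3L and 3R. Bars are exact 95% intervals for counting error (order-statistic intervals for medians), and all y axes start at 0. On 2L the share of long chains is the lowest, at 2.25%, with an interval that overlaps those of X, 3L and 3R. The share of telomeric peaks is the highest on 2L, at 59.4% (56.2% to 62.5%). Its interval overlaps that of 3L, at 53.9% (50.9% to 57.0%).

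At the scale of 50 kb, 191 of the 454 windows of 2L were empty and 69 windows, 15.2%, held 5 or more peaks and with them 54.9% of all peaks on the arm. The longest run of empty windows counted 7, or 350 kb, and 14 runs were at least 4 windows long. The 5 fullest windows were those from 21450001 and from 21500001 with 16 peaks each, from 2150001 with 13, and from 2850001 and from 5950001 with 12 each. Further windows with 12 peaks began at 6900001 and 19550001. Their make-up differed. In the window from 5950001 the peaks reached 2390 bp and a score of 46.3 and covered 20.2% of the sequence. The window from 2150001 contained a peak of 124.03. The pair from 21450001 had no peak wider than 509 bp or higher than 20.85, and their peaks covered 9.12% and 10.1%.

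That pair of windows belongs to a stretch of 121.9 kb, from 21419624 to 21541478, which held 41 peaks, 4.34% of those on 2L in 0.538% of its span. Its density was 336 per Mb, compared with 41.7 for the arm. A high value follows from how the stretch was chosen. It was sought as the 150 kb with most peaks in the last 2 Mb before the last peak. Earlier results of these data had singled it out, and its bounds are its first and last peak. Long free stretches bounded it, 181.6 kb on the telomeric side and 86.2 kb on the centromeric side. Its peaks were narrow and uniform, from 201 to 509 bp with a median of 292 bp against 390 bp for the other 904 peaks, and their scores ran from 7.63 to 20.85 with a median of 11.17 against 12.57. Of its 40 free stretches, 11 were under 1000 bp and the longest was 16.9 kb. Their median was 2329 bp, and that of the free stretches on the rest of the arm was 3950 bp.

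Within the stretch, 8 of the 14 peaks from 21503520 to 21538517 had centres at steps of 4782 to 5104 bp, with a median of 4974 bp. The other 6 peaks lay between them and were passed over, so these are not steps between neighbouring peaks. This run of 8 was found by looking for the longest series, skipping peaks where needed, with steps of 4500 to 5500 bp after an even spacing near 5 kb was known, so it describes the pattern and does not test it. The scores of the 8, from telomere to centromere, were 14.06, 20.85, 7.63, 10.97, 14.53, 11.95, 11.58 and 8.10. The highest of the stretch was thus the second of the run. As background, the replication-dependent histone genes of Drosophila melanogaster lie as a tandem array of near-identical units in the proximal part of 2L. Whether this stretch falls on that array was not examined here, since gene positions of Release 5 were not used. Reads from near-identical copies cannot be assigned to 1 copy with certainty, and how such reads were handled is not stated.

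**Figure D5:**
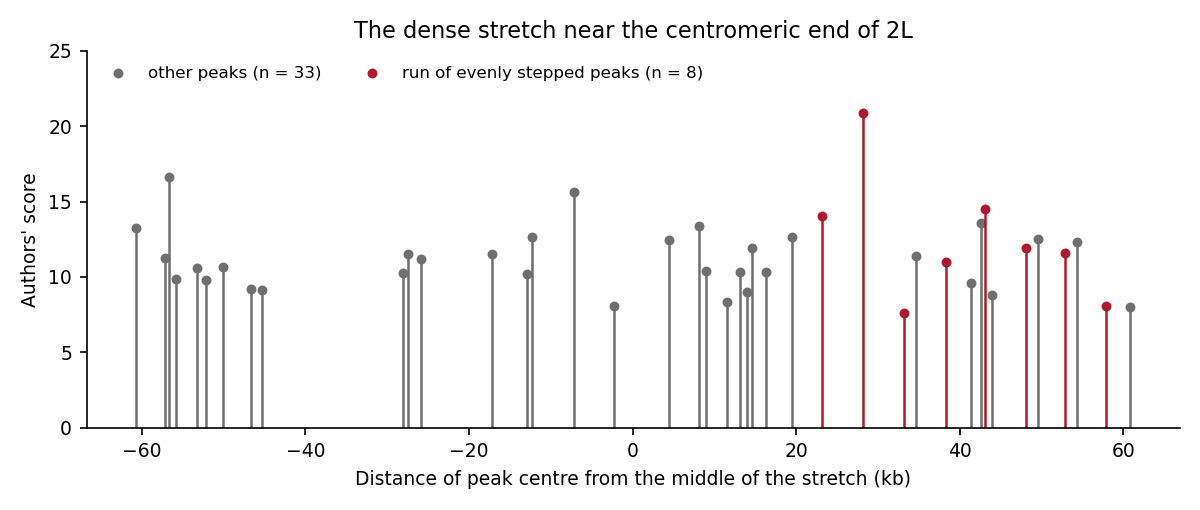
Authors' score (y axis, from 0) of the 41 Fru peaks in the dense stretch near the centromeric end of 2L, against the distance of each peak centre from the middle of the stretch in kb. Each line is a peak, and red marks the 8 peaks of the run, whose centres are 4782 to 5104 bp apart once the 6 other peaks between them are passed over; no peak of the stretch scores above 20.85.

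No Fru peak lay in the 181.6 kb directly before the dense stretch or in the 86.2 kb directly after it. Only 15 peaks were called in the 1124 kb between its end and the last peak of the arm. None of the 15 scored above 44.62, whereas the first 1 Mb after the first peak held 54 peaks. The last 2 peaks, 66 bases apart, lay beyond a free stretch of 299.8 kb.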

How the data were processed

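ChIP and input libraries of whole embryos were sequenced (2 each), and 1 peak list for the series was used. Per the file headers, peaks were called with MACS in FlyBase Release 5 coordinates; per the submitters' processing notes, CASAVA (1.7.0.3 and 1.7.0.2), MACS2 and BWA were used with the build BDGP5. Other deposited columns give where each peak starts and ends. The score the authors deposited has no stated scale. No source used here gives the pooling, threshold or filters. Depth per library is unknown. The gene table at hand is of Release 6 and was not used for positions.

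Members and lists were chosen with earlier results of these data known. Named are the 10 highest, 5 widest, 3 narrowest and 5 most isolated peaks, the 5 densest 50 kb windows, the 5 longest free stretches, the 5 largest chains and the ends; other peaks named were chosen after their values were seen. A peak belongs to the window that holds its centre. Arm length is the span from first to last peak. Chains join peaks with under 1000 free bases between them. Counting functions were tested on simulated data. The tools were scipy 1.17.1, pandas 2.3.3 and numpy 2.4.6 in Python 3.11.15, with matplotlib 3.10.9 for plots. Alternatives were stricter score limits, merged peaks, other window sizes, starts and distance limits, and 2L without its dense stretch.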

Additional observations from a re-analysis of the deposited data

How the results depend on the processing

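No paired analysis was possible because libraries have no values of their own in the list, so no replicate could be left out either. Without the dense stretch near the centromeric end, 904 peaks remained at 39.9 per Mb and no value left its counting interval or changed by over 1.5 times, and no rank changed. With the 50% of 2L peaks of highest score (472 peaks), the density was 20.97 per Mb, the median width 594 bp, the median centre distance 11950 bp, the lowest and highest full 1 Mb window 4 and 44, the empty 50 kb windows 55.2%, the peaks with a close neighbour 35.4%, those in chains of 4 or more 2.75% and those in the telomeric 50% of the span 63.8%. With the top 25% (236 peaks) these were 10.5 per Mb, 814 bp, 35236 bp, 2 and 25, 68.5%, 19.9% and, for the telomeric share, 63.1%, and the longest free stretch grew to 684.8 kb. With peaks closer than 1000 bp merged, density was 29.4 per Mb, median width 513 bp and median centre distance 9966 bp. Empty windows made up 65.3% at 20 kb and 24.2% at 100 kb. Limits of 500 and 2000 bp gave 34.1% and 63.4% of peaks with a close neighbour, and 2.43% and 19.4% of peaks in chains of 4 or more. Without its fullest 1 Mb window, the telomeric share was 55.6%, and the rank of 2L for this share was not taken under the alternatives. All alternatives for chains and for the telomeric share were chosen after seeing the data.

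For ranks, the top 50% and the top 25% by score were taken over the 5 large arms and chromosome 4 together, not within each arm. Among the 5 large arms, 2L ranked 4 for density (3 with the top 50% and with merging), 2 for median width (3, 1 and 5 with the top 50%, the top 25% and merging), 1 for centre distance (3 under each of these), 2 for empty windows (3 with the top 50% and with merging), 4 for the longest free stretch (3 with the top 50% and the top 25%) and 5 for the share of peaks with a close neighbour (2 with the top 50%). It kept rank 5 for chains of 4 or more and rank 2 for scores over 100 under each alternative tried for them. For scores over 100 these were only merging and leaving out the dense stretch, which could hardly change those peaks. That rank rests on 13 peaks on 2L, 11 each on X, 2R and 3R and 12 on 3L, and the intervals of the shares overlapped. The cause of the moves in rank was not tested. Read depth per library is unknown, so regions that lacked the depth to be called cannot be told from regions without binding.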
